A study of Danio rerio with 24 samples.

Results

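The 8 genes described here mark successive steps in the making of neurons and were chosen by name, as the rows of the counts table for sox2, sox3, sox19a, sox19b, neurog1, ascl1a, neurod4 and elavl3. They are 8 of the 32520 genes in the table, and all 8 were among the 19597 genes with enough reads to be tested. The embryos were Tropical 5D strain zebrafish from adults that had been fed a vitamin E (VitE) deficient (E–) or sufficient (E+) diet for months, so that E– and E+ embryos differ in the vitamin the mother placed in the yolk. Whole embryos of each VitE status were pooled at 3 ages, 12, 18 and 24 hours post-fertilization (hpf), with 10 embryos per pool and 4 pools per VitE status and age, which gives 24 pools in 6 groups: E– and E+ at 12 hpf, E– and E+ at 18 hpf, and E– and E+ at 24 hpf. Only embryos that looked normal and had the developmental landmarks of their age, such as the number of somites, were used. E– and E+ embryos were thus matched for stage, and a delay of either group cannot be read from these levels. All embryos came from group spawning of the same strain, with no genetic change in either group. The sources do not state whether pools within a group were from different spawnings. The p-values set group differences against the spread between pools, which may be partly technical and may not include differences between spawnings.

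Neurons arise from dividing progenitors of the neural plate and neural tube. SoxB1 transcription factors keep these cells in the progenitor state, proneural bHLH factors start neuronal differentiation in single cells, and Notch signaling from those cells holds their neighbors back. Cells that leave the cycle switch on RNA-binding proteins of the Hu family. In zebrafish the first neurons form in the neural plate around the start of segmentation, and the neural tube is built over the ages sampled here.

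Libraries were made from the 3′ ends of mRNA, so that a transcript gives reads from its end only, and levels are given as CPM, read counts scaled to the same fixed library total in every pool, not divided by gene length. Gene counts ranged from 10537272 to 20973407 per pool. A single gene took 25.1 to 39.2% of them, and its highest share, 39.2%, was in E– at 12 hpf, replicate 3, which also had the lowest scaling factor (0.859). The 8 genes had between 5176 counts (ascl1a) and 103917 counts (sox3) over the 24 pools. The fewest counts of any of them in a pool were 50, for ascl1a at 12 hpf, where counting alone gives a coefficient of variation (CV) of 14.1%. The whole-embryo label was checked with 24 marker genes of other tissues, of which 19 could be matched by name. Genes of muscle, notochord, blood, neural crest, epidermis, yolk, germ cells and endothelium were detected in every pool, except crestin, at 0 in 3 pools and at most 1.06 CPM, and ttr, at 0 in 8 pools and at most 1.4 CPM. CPM gives a share of the reads of a pool. In such mixed samples a lower level may mean fewer cells of a type, less RNA per cell or more RNA from other cells, and these cannot be told apart.

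Tests were made with the edgeR quasi-likelihood method over all 19597 genes, and genes with a Benjamini–Hochberg false discovery rate (FDR) under 0.1 were called differentially expressed (DE). Of the 8 genes, none was DE between E– and E+ embryos, either with the 3 ages tested together or at a single age. With the ages tested together 0 of 8 were called, against 1.12% of all genes tested, and 1 had an unadjusted p under 0.05, against 11.6% of all genes. At 12 hpf 0 of 8 were called, against 0.806% of all genes, and 1 had an unadjusted p under 0.05, against 10.6% of all genes. At 18 hpf 0 of 8 were called and 0 had an unadjusted p under 0.05, against 0.398% and 9.14% of all genes. At 24 hpf the count was again 0 of 8 by either measure, and no gene of the whole table was called (0%), although 1308 genes (6.67%) had an unadjusted p under 0.05. DESeq2 called more genes of the whole table than edgeR in each of these tests. Its 12 hpf test called 307 genes, with 1 of the 8 among them (neurod4). Its joint test called 637 genes, with 0 of the 8 among them. The 18 hpf test called 199 genes and the 24 hpf test 23, again with 0 of the 8. A share of 0 of 8 is near the background shares called by edgeR.

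**Figure D1:**
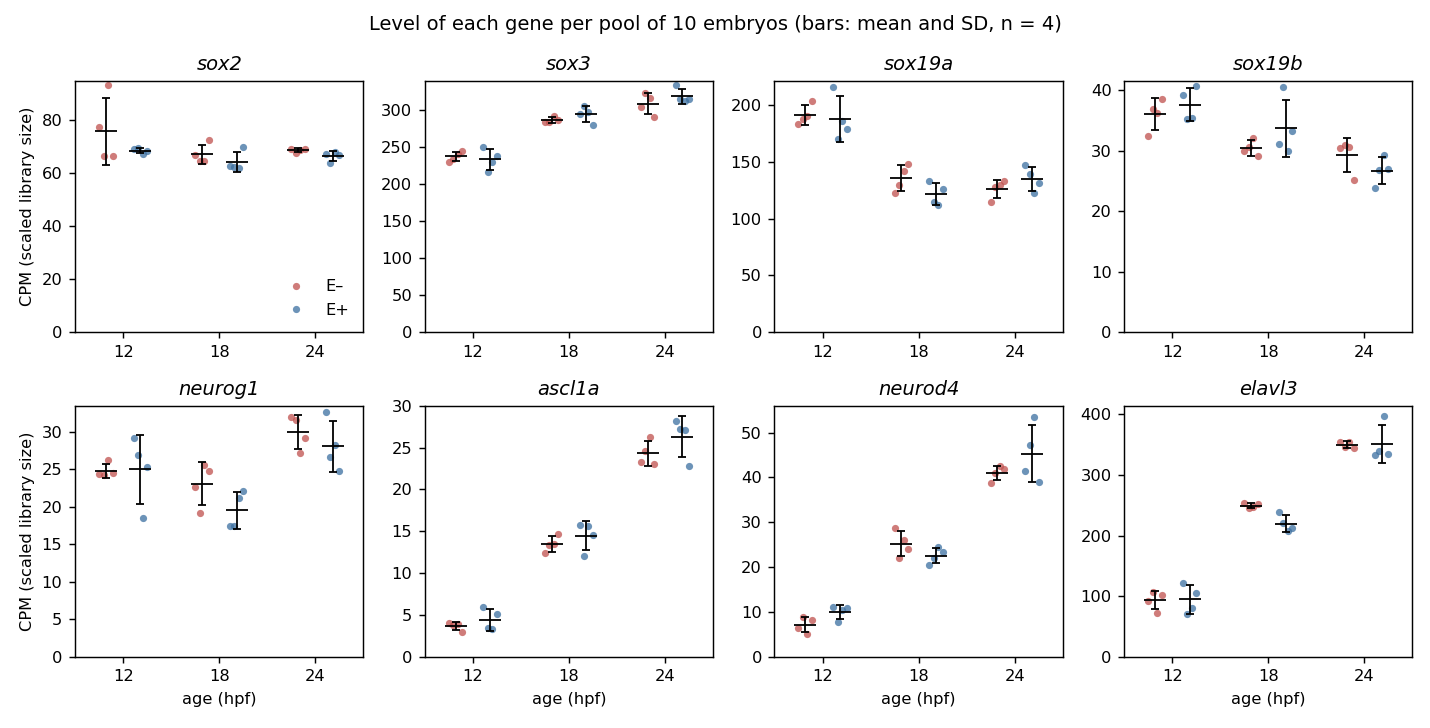
Level of each of the 8 genes (CPM, linear axis from 0) against age (hpf), with 1 point per pool of 10 embryos, E– left of E+ at each age, and bars for the mean and SD of 4 pools. ascl1a, neurod4 and elavl3 climb at each age in both groups, sox19a steps down after 12 hpf, sox2 stays between 61.8 and 92.9 CPM, and the E– and E+ points overlap everywhere except for elavl3 at 18 hpf.

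The SoxB1 genes of this set are described first. sox1a and sox1b could not be matched by name and are not among them. sox2 (ENSDARG00000070913), a core progenitor factor, had the steadiest level. In E– embryos the 4 pools had 77.2, 66.3, 92.9 and 66.2 CPM at 12 hpf, against 68.8, 69.5, 67 and 68.2 CPM in E+ embryos. E– pools had 66.8, 64.4, 64.4 and 72.2 CPM at 18 hpf, against 62.6, 62, 61.8 and 69.6 CPM in E+ pools. At 24 hpf the values were 69.1, 67.4, 68.5 and 68.9 CPM in E– pools and 66.9, 63.5, 67.9 and 66.7 CPM in E+ pools. The groups overlapped at every age, and the wide spread of E– at 12 hpf (CV 16.7%, against 1.55% in E+) included the high value of replicate 3, the library with the largest single-gene share. That library also had the lowest scaling factor (0.859), which raises its CPM. The sox2 log2 fold change (log2FC) of E– over E+ was 0.14 (SE 0.09) at 12 hpf with that library and 0.03 without it. Its mean level over the 6 groups lay between 64 CPM (E+ at 18 hpf) and 75.6 CPM (E– at 12 hpf), and each neighboring pair of groups in this order overlapped.

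sox2 was not DE with age in either diet group. From 12 to 24 hpf its log2FC was -0.14 (95% interval -0.32 to 0.03, FDR 0.189, edgeR) in E– embryos and -0.05 (-0.22 to 0.13, FDR 0.709) in E+ embryos, where the sign turned to 0.06 when library sizes were not scaled. From 12 to 18 hpf the E– value was -0.18 (SE 0.09, FDR 0.126, edgeR). It passed the threshold, as a decrease, without E– 12 hpf replicate 2 (FDR 0.0449), without E– 12 hpf replicate 4 (FDR 0.0492), without E– 18 hpf replicate 4 (FDR 0.0885) and in DESeq2 (FDR 0.0922). From 12 to 24 hpf it also passed in E– embryos without 12 hpf replicate 2 (FDR 0.0701) or replicate 4 (FDR 0.0726).

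sox3 (ENSDARG00000053569), a SoxB1 gene of the early neural plate, was the most abundant by CPM of the SoxB1 genes described here and rose with age. E– pools had 230, 235, 241 and 245 CPM at 12 hpf, against 250, 217, 230 and 238 CPM in E+ pools. At 18 hpf the values were 285, 284, 293 and 287 CPM in E– and 295, 306, 298 and 280 CPM in E+ embryos. At 24 hpf they were 305, 324, 317 and 291 CPM in E– and 334, 315, 313 and 315 CPM in E+ embryos. Every pool of 18 hpf lay above every pool of 12 hpf, while E– and E+ overlapped at each age. From 12 to 18 hpf sox3 rose by a log2FC of 0.27 (SE 0.07, FDR 0.00102, edgeR) in E– and 0.33 (SE 0.07, FDR 8.30e-05) in E+ embryos. The step to 24 hpf, 0.11 in E– and 0.12 in E+ embryos, did not pass the test (FDR 0.309 and 0.24), apart from an FDR of 0.0934 in E+ embryos by DESeq2.

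sox19a (ENSDARG00000010770), a zebrafish SoxB1 gene of the early neural ectoderm, fell between 12 and 18 hpf. Pools at 12 hpf had 183, 188, 190 and 204 CPM in E– and 216, 170, 186 and 179 CPM in E+ embryos. Pools at 18 hpf had 123, 130, 142 and 148 CPM in E– and 133, 115, 112 and 126 CPM in E+ embryos. Pools at 24 hpf had 115, 128, 130 and 133 CPM in E– and 147, 139, 123 and 131 CPM in E+ embryos. The 12 hpf pools of both groups stood above all later pools, and the 18 and 24 hpf pools overlapped. sox19a fell by 0.49 on the log2 scale (SE 0.08, FDR 1.09e-05, edgeR) in E– and by 0.63 (SE 0.08, FDR 1.68e-07) in E+ embryos from 12 to 18 hpf. From 18 to 24 hpf the log2FC was -0.11 (FDR 0.45) in E– and 0.15 (FDR 0.236) in E+ embryos, neither past the threshold.

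sox19b (ENSDARG00000040266) is the SoxB1 gene whose mRNA is loaded into the zebrafish egg by the mother and that is later expressed by the embryo. It was the lowest by CPM of the SoxB1 genes described here. Its E– pools had 32.4, 37, 36.3 and 38.6 CPM at 12 hpf, against 39.2, 35.2, 35.4 and 40.7 CPM in E+ pools. Its 18 hpf values were 29.9, 30.7, 32.2 and 29.1 CPM in E– and 31.2, 40.5, 30 and 33.2 CPM in E+ embryos. Its 24 hpf values were 30.5, 30.9, 30.6 and 25.2 CPM in E– and 23.8, 26.8, 29.3 and 27 CPM in E+ embryos. Neighboring groups overlapped throughout. Over the full span from 12 to 24 hpf sox19b fell by 0.30 on the log2 scale (SE 0.11, FDR 0.0174, edgeR) in E– embryos and by 0.49 (SE 0.10, FDR 0.000153) in E+ embryos. The E– value was -0.21 in lane 7 alone (FDR 0.359) and -0.21 without scaling (FDR 0.105), neither past the threshold.

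The step at which sox19b fell could not be placed firmly. In E– embryos it fell by 0.25 from 12 to 18 hpf (FDR 0.0621, edgeR), a call lost without 12 hpf replicate 2 (FDR 0.107), 12 hpf replicate 4 (0.157), 18 hpf replicate 1 (0.116) or 18 hpf replicate 4 (0.136), with TMM scaling (0.117), without scaling (0.323) and within either lane (0.43 in lane 7, 0.174 in lane 8). In E+ embryos it fell by 0.34 from 18 to 24 hpf (FDR 0.0189, edgeR). That call was lost without 18 hpf replicate 2, the pool at 40.5 CPM (FDR 0.144), and within lane 8 (FDR 0.584). Without that pool the earlier step in E+ embryos passed instead, with a log2FC of -0.26 (FDR 0.0613).

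Of the proneural genes, neurog1 (ENSDARG00000056130), the bHLH factor that starts neuron formation in the neural plate and in sensory ganglia, had its lowest mean at 18 hpf in both groups. At 12 hpf it had 24.4, 24.2, 26.2 and 24.5 CPM in E– pools and 29.2, 26.9, 18.5 and 25.3 CPM in E+ pools. At 18 hpf it had 22.7, 19.2, 25.6 and 24.8 CPM in E– pools and 17.5, 17.4, 21.2 and 22.1 CPM in E+ pools. At 24 hpf it had 32, 31.6, 27.2 and 29.2 CPM in E– pools and 32.7, 26.6, 28.2 and 24.8 CPM in E+ pools. The E– pools of 12 hpf were close together (CV 3.81%), whereas the E+ pools of that age had a CV of 18.4%. All neighboring groups overlapped.

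The neurog1 decrease from 12 to 18 hpf passed the test in E+ embryos (log2FC -0.35, SE 0.13, FDR 0.0259, edgeR) and not in E– embryos (log2FC -0.11, SE 0.13, FDR 0.562). The diet by time interaction, which tests whether such steps differ between the diets, had an FDR of 0.926 for neurog1. The E+ call was lost without 12 hpf replicate 1 (FDR 0.116) and in lane 8, where the log2FC was -0.01. From 18 to 24 hpf neurog1 rose in both groups, by 0.38 (SE 0.13, FDR 0.0348, edgeR) in E– and 0.52 (SE 0.13, FDR 0.00241) in E+ embryos. The E– increase was lost without 18 hpf replicate 2 (FDR 0.142), and lane 8 alone gave neither (FDR 0.683 in E– and 0.335 in E+ embryos). Over the full span it rose by 0.27 in E– embryos (FDR 0.0731, edgeR), a call lost without any of 5 single E– pools (FDR 0.123 to 0.167: 12 hpf replicates 1, 2 and 4 and 24 hpf replicates 1 and 2), in each lane (0.104 in lane 7, 0.541 in lane 8) and with all genes kept (0.16), and had a log2FC of 0.17 in E+ embryos (FDR 0.273), which reached 0.27 and an FDR of 0.0686 without scaling.

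ascl1a (ENSDARG00000038386), a bHLH factor of neural progenitors in the brain and later the retina, was the rarest of the 8 at 12 hpf and rose at every step. It had 4.08, 3.78, 3.86 and 2.92 CPM in E– pools at 12 hpf, against 5.94, 3.4, 3.31 and 5.12 CPM in E+ pools. It had 12.4, 13.4, 13.5 and 14.7 CPM in E– pools at 18 hpf, against 15.7, 12, 15.6 and 14.6 CPM in E+ pools. It had 23.3, 24.6, 26.3 and 23.1 CPM in E– pools at 24 hpf, against 28.2, 27.2, 27.1 and 22.8 CPM in E+ pools. The 3 ages were fully separated and the VitE groups overlapped at each. ascl1a rose by a log2FC of 2.73 (SE 0.16, 6.65-fold, FDR 2.09e-16, edgeR) in E– and 2.57 (SE 0.16, 5.94-fold, FDR 4.06e-16) in E+ embryos from 12 to 24 hpf. Its mean was lower in E– than in E+ embryos at each age, 3.66 ± 0.509 against 4.44 ± 1.3 CPM, 13.5 ± 0.969 against 14.5 ± 1.73 CPM and 24.3 ± 1.5 against 26.3 ± 2.38 CPM (SD, n = 4), with log2FC of -0.28, -0.10 and -0.12. No single age passed the test (FDR 0.608, 0.907 and 0.941, edgeR), and the joint FDR was 0.738. The 12 hpf value was -0.10 without E+ 12 hpf replicate 1, -0.18 without E– 12 hpf replicate 4 and -0.40 without E+ 12 hpf replicate 3. The 18 hpf value was -0.06 without E+ 18 hpf replicate 1, E+ 18 hpf replicate 3 or E– 18 hpf replicate 1, and -0.18 without E+ 18 hpf replicate 2. The 24 hpf value was -0.22 in lane 7 and -0.02 in lane 8.

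neurod4 (ENSDARG00000003469), a bHLH factor that acts after the proneural genes in newly specified neurons, rose at every step and carried the largest E– to E+ difference of the 8 genes. At 12 hpf it had 6.44, 8.78, 5.12 and 8.12 CPM in E– pools, against 11.1, 7.69, 10.4 and 10.9 CPM in E+ pools. The lowest E+ pool (replicate 2) lay below 2 of the E– pools, so the groups overlapped. At 18 hpf it had 28.7, 22.1, 26.1 and 24 CPM in E– pools, against 20.4, 22.1, 24.4 and 23.3 CPM in E+ pools. At 24 hpf it had 38.8, 41, 42.5 and 41.8 CPM in E– pools, against 41.5, 47.2, 53.6 and 39.1 CPM in E+ pools. E– embryos were thus lower on average at 12 hpf, higher at 18 hpf and lower at 24 hpf, with overlap at each age.

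At 12 hpf the neurod4 log2FC of E– over E+ was -0.49 (SE 0.15, 95% interval -0.78 to -0.20), with an unadjusted p of 0.00199 and an FDR of 0.153 over all genes (edgeR). In all, 10.6% of the genes tested had an unadjusted p under 0.05 at that age, and neurod4 ranked 254 by p. The difference passed the threshold in DESeq2 (FDR 0.0831), with all 29109 genes with reads kept (FDR 0.0898), without E+ 12 hpf replicate 2 (log2FC -0.60, FDR 0.0416) and without E– 12 hpf replicate 2 (log2FC -0.60, FDR 0.05). In that order, those settings called 307, 338, 252 and 331 genes of the whole table at 12 hpf, against 158 in the reported fit. The pools left out had the lowest E+ and the highest E– value of neurod4 at that age, so leaving them out widened the difference. Without E– 12 hpf replicate 3, the library with the largest single-gene share, it was -0.36 (FDR 0.462). Within sequencing lanes it was -0.30 (SE 0.22, FDR 0.847) in lane 7 and -0.67 (SE 0.21, FDR 0.236) in lane 8. The joint test gave an FDR of 0.217, which passed only without E+ 12 hpf replicate 2 (FDR 0.0911). Whether the neurod4 difference changed with age was tested as the interaction, with an unadjusted p of 0.00876 and an FDR of 0.552. None of the 8 genes passed the interaction test (0 of 8 in edgeR, 0 in DESeq2, against 0.0153% of all genes in edgeR, and 1 of 8 with an unadjusted p under 0.05, against 6.69% of all genes).

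With age neurod4 rose by a log2FC of 1.82 (SE 0.14, FDR 6.29e-13, edgeR) in E– and 1.17 (SE 0.14, FDR 1.08e-08) in E+ embryos from 12 to 18 hpf, and by 0.70 (SE 0.13, FDR 0.000138) in E– and 1.01 (SE 0.13, FDR 2.54e-07) in E+ embryos from 18 to 24 hpf. The full span was a rise of 5.74-fold in E– and 4.53-fold in E+ embryos. Whether the steps differ between the diets is covered by the interaction test above.

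elavl3 (ENSDARG00000014420), which encodes the Hu RNA-binding protein HuC of newborn neurons, was the most abundant of the 8 at 24 hpf by CPM. At 12 hpf it had 92.6, 107, 72.7 and 102 CPM in E– pools and 122, 70.2, 81.2 and 106 CPM in E+ pools. At 18 hpf it had 253, 245, 247 and 252 CPM in E– pools and 239, 220, 207 and 212 CPM in E+ pools. At 24 hpf it had 355, 347, 355 and 344 CPM in E– pools and 333, 339, 398 and 334 CPM in E+ pools. At 18 hpf all 4 E– pools lay above all 4 E+ pools, the only 1 of the 24 pairs of gene and age in which the groups did not overlap. Of all genes, 3.25% showed this order at 18 hpf, and pools did not overlap in either direction for 4.11% at 12 hpf, 6.32% at 18 hpf and 4.37% at 24 hpf. The elavl3 difference at 18 hpf was a log2FC of 0.18 (SE 0.11, 95% interval -0.04 to 0.40) with an FDR of 0.646 (edgeR), and it was 0.13 to 0.25 over 35 other settings. At 12 hpf and 24 hpf the log2FC was -0.02 and -0.00, and the 12 hpf value was 0.13 without E+ 12 hpf replicate 1, the pool at 122 CPM.

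elavl3 rose by a log2FC of 1.42 (SE 0.11, FDR 1.44e-12, edgeR) in E– and 1.21 (SE 0.11, FDR 6.40e-11) in E+ embryos from 12 to 18 hpf. From 18 to 24 hpf it rose by 0.49 (SE 0.11, FDR 0.00159) in E– and 0.68 (SE 0.11, FDR 1.87e-05) in E+ embryos. Only the E– step to 24 hpf missed the threshold in any setting, within lane 7 (log2FC 0.47, FDR 0.111). From 12 to 24 hpf elavl3 rose by 3.75-fold in E– and 3.71-fold in E+ embryos.

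**Figure D2:**
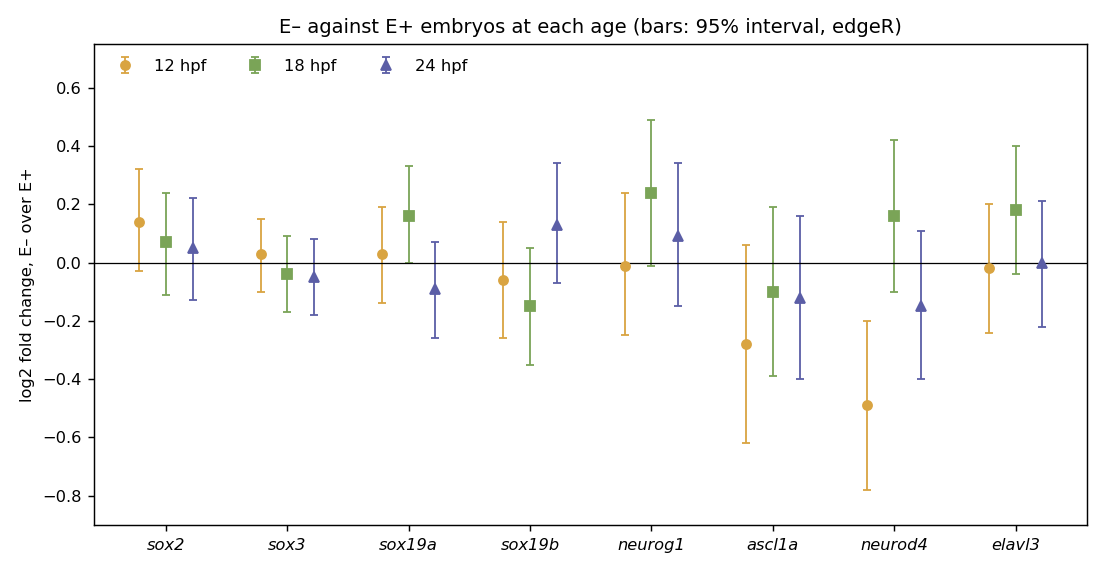
log2FC of E– over E+ for the 8 genes at 12, 18 and 24 hpf, where 0 means equal levels. The 95% intervals are normal approximations from the SE of the edgeR fit. neurod4 at 12 hpf (-0.49) is the only value whose interval is clear of 0, and its FDR over all genes was 0.153.

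For sox3, sox19a, sox19b and neurog1 the E– over E+ log2FC was within 0.3 of 0 at each age. In order of age, sox3 had 0.03, -0.04 and -0.05, with an SE of 0.07 for all 3. sox19a had 0.03, 0.16 (95% interval -0.00 to 0.33) and -0.09, and sox19b had -0.06, -0.15 (-0.35 to 0.05) and 0.13 (-0.07 to 0.34). neurog1 had -0.01, 0.24 (-0.01 to 0.49) and 0.09. The 18 hpf value of sox19b was -0.05 without E+ 18 hpf replicate 2, the pool at 40.5 CPM, and its 24 hpf value was 0.08 without E+ 24 hpf replicate 1 and 0.20 without E– 24 hpf replicate 4. The 18 hpf value of sox19a was 0.04 in lane 7 and 0.28 in lane 8. In lane 8 alone the 24 hpf values of sox19a (0.04) and sox19b (-0.01) had the other sign, as did neurog1 at 12 hpf (0.22).

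Over the whole span from 12 to 24 hpf, most of the 8 genes were DE in both diet groups. From 12 to 18 hpf 6 of 8 were DE in E– embryos, against 42.2% of all genes, with 4 higher (21.7% of all genes) and 2 lower (20.4%). In E+ embryos 6 of 8 were DE over that step, against 43.9% of all genes, with 4 higher (22.8%) and 2 lower (21.1%). From 18 to 24 hpf 4 of 8 were DE in E– embryos (21.8% of all genes), with 4 higher (11.2%) and 0 lower (10.6%), and 5 of 8 in E+ embryos (24.8%), with 4 higher (13.1%) and 1 lower (11.7%). Over the whole span 7 of 8 were DE in E– embryos (55.5% of all genes), with 5 higher (28.9%) and 2 lower (26.6%), and 6 of 8 in E+ embryos (53.3%), with 4 higher (27.3%) and 2 lower (26%). The median log2FC of the 8 from 12 to 24 hpf was 0.32 in E– and 0.31 in E+ embryos, beside 0.06 and 0.02 over all genes tested. Leaving library sizes unscaled moved the median of all genes by 0.09 in E– and 0.10 in E+ embryos over the same span.

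**Figure D3:**
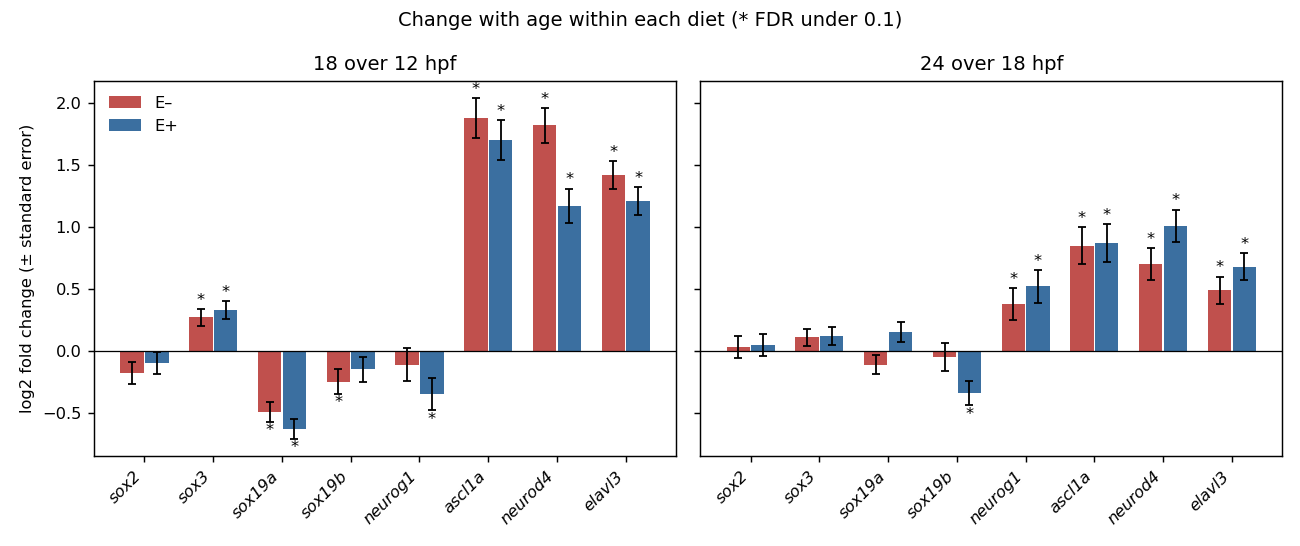
Change of each gene between consecutive ages within each diet (log2FC ± SE, bars from 0, E– left of E+), with a star for an FDR under 0.1. Within each diet ascl1a, neurod4 and elavl3 have the largest rises in both panels. sox19a is negative in both steps in E– embryos and in the first step alone in E+ embryos.

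Ratios within a pool do not depend on how library sizes are scaled. The balance of the SoxB1 genes was measured as sox3 over sox19a, whose 18 hpf pools all lay above the 12 hpf pools. At 12 hpf E– pools averaged 1.24 ± 0.0294, against 1.25 ± 0.0709 in E+ pools (SD, n = 4 each). At 18 hpf E– pools averaged 2.12 ± 0.161, against 2.44 ± 0.255 in E+ pools, and at 24 hpf E– pools averaged 2.45 ± 0.193, against 2.37 ± 0.127 in E+ pools. sox19a over sox19b averaged between 3.66 ± 0.598 (E+ at 18 hpf) and 5.31 ± 0.246 (E– at 12 hpf) over the 6 groups. The ratio of neurod4 to neurog1, a later to an earlier bHLH factor, averaged 0.288 ± 0.0747 in E– pools of 12 hpf, against 0.415 ± 0.114 in E+ pools (SD, n = 4 each). Its 18 hpf averages were 1.1 ± 0.134 for E– pools, against 1.16 ± 0.0896 for E+ pools, and its 24 hpf averages 1.38 ± 0.154 for E– pools, against 1.63 ± 0.276 for E+ pools. E– and E+ pools overlapped at each age for these 3 ratios.

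The ratio of elavl3 to the summed SoxB1 genes (sox2, sox3, sox19a and sox19b) set a gene of newborn neurons against genes of progenitors. It averaged 0.173 ± 0.031 in E– pools of 12 hpf, against 0.178 ± 0.0336 in E+ pools (SD, n = 4 each). At 18 hpf it averaged 0.479 ± 0.0156 in E– pools, against 0.427 ± 0.0205 in E+ pools, where E– pools ran from 0.465 to 0.5 and E+ pools from 0.412 to 0.457 without overlap. At 24 hpf it averaged 0.657 ± 0.0218 in E– pools, against 0.643 ± 0.0716 in E+ pools. The separation at 18 hpf was noticed after the values were seen and uses the same elavl3 counts as above, so it adds no test.

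**Figure D4:**
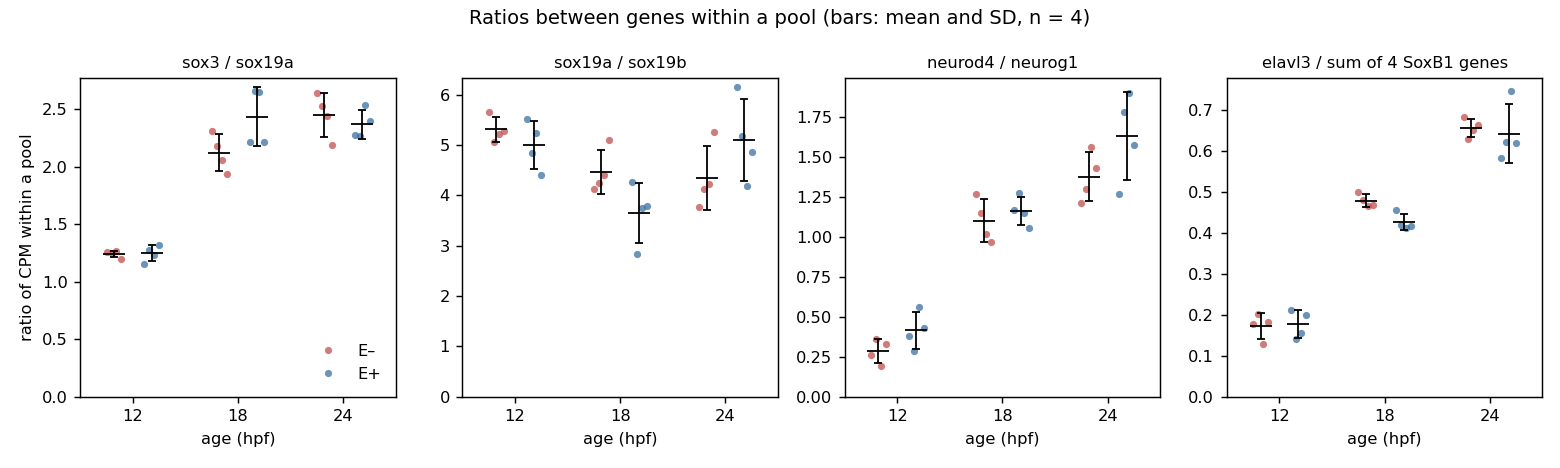
Ratios of CPM between genes within a pool against age (hpf), with 1 point per pool, E– left of E+, and bars for mean and SD of 4 pools. The ratio of elavl3 to the summed SoxB1 genes climbs from below 0.25 to above 0.5 over the 3 ages, and its E– points lie above the E+ points at 18 hpf only.

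Related genes were described from 6 lists of 66 names, of which 29 were tested, 5 had too few reads, 2 matched several IDs and 30 could not be matched by name and were not analysed here. From 12 to 24 hpf 6 of the 7 measured members of the neuron list rose and 0 fell in E– as in E+ embryos, beside 28.9% of all genes higher and 26.6% lower in E– and 27.3% higher and 26% lower in E+ embryos. Their median log2FC was 1.65 in E– and 1.82 in E+ embryos, beside 0.06 and 0.02 over all genes. elavl4, the Hu gene HuD of differentiating neurons, had the largest rise of that list in E+ embryos (log2FC 5.27, SE 0.16, in E– and 4.74, SE 0.15, in E+ embryos), followed there by gng3, a G protein subunit of neurons (4.29 in E– and 4.33 in E+ embryos). Of 6 other proneural and neuronal bHLH genes, 6 rose in E– and 5 in E+ embryos, with a median of 2.16 in E– and 1.61 in E+ embryos. nhlh2 rose by 3.67 in E– and 3.41 in E+ embryos, and ascl1b, the duplicate of ascl1a, by 2.65 in E– and 2.89 in E+ embryos. atoh1b, a bHLH gene of the ear and hindbrain, passed in E– embryos only (log2FC 2.23; the E+ value had an FDR of 0.11), with levels under 2 CPM in every pool, and its interaction had an FDR of 0.748.

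Of 9 measured Notch pathway genes, 6 rose and 1 fell from 12 to 24 hpf in E– embryos, and 7 rose and 1 fell in E+ embryos. dlb, a Delta ligand of newborn neurons, rose by 2.15 in E– and 2.01 in E+ embryos, and her4.1, a Notch target that represses proneural genes, by 2.00 in E– and 1.93 in E+ embryos. Of 6 other neural progenitor genes, 4 rose and 2 fell in each diet group. Among them gfap, of radial glia, rose by 3.27 in E– and 2.69 in E+ embryos, and nes, the intermediate filament nestin, by 2.80 in E– and 2.46 in E+ embryos. sox21a, the 1 measured gene of the other SoxB list, rose by 0.54 in E– embryos (not called within lane 7 alone) and 0.50 in E+ embryos. The 1 matched SoxC gene, sox4a, had 0 reads under its matched ID and was not tested. Whether that ID collects the reads of the gene was not checked, so its level is not known here. Over all 29 genes 23 rose and 3 fell in each diet group, beside the same shares of all genes (28.9% higher and 26.6% lower in E–, 27.3% and 26% in E+ embryos).

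**Figure D5:**
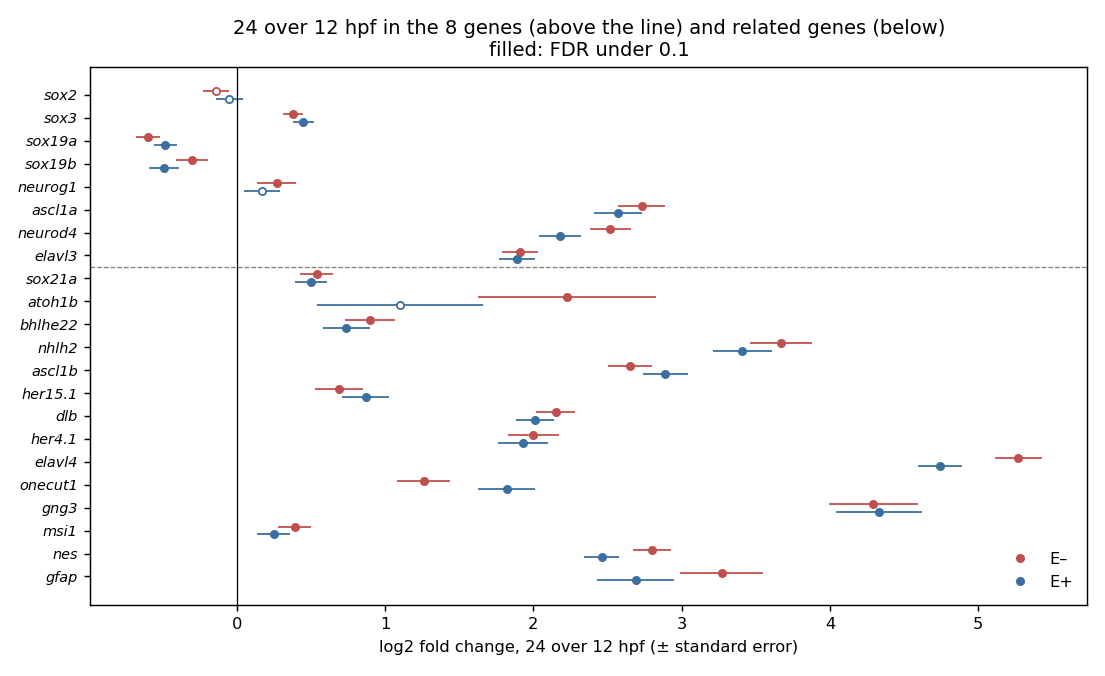
log2FC of 24 over 12 hpf (± SE) for the 8 genes, above the dashed line, and for the related genes named in the text, below it, with E– drawn above E+ in each row and filled points for an FDR under 0.1. elavl4 and gng3 reach above 4 in both diet groups, whereas the SoxB1 genes among the 8 stay within 0.7 of 0.

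Between E– and E+ embryos, 2 of the 29 related genes were DE with the ages tested together (1.12% of all genes), 1 at 12 hpf (0.806%), 1 at 18 hpf (0.398%) and 0 at 24 hpf (0%). An unadjusted p under 0.05 was found for 6 in the joint test (11.6% of all genes), 6 at 12 hpf (10.6%), 3 at 18 hpf (9.14%) and 1 at 24 hpf (6.67%). her15.1, a Notch target of the her family, averaged 12.2 ± 1.73 CPM in E– pools of 12 hpf, against 7.74 ± 1.81 CPM in E+ pools (SD, n = 4 each). Its 18 hpf averages were 9.09 ± 0.846 CPM for E– pools, against 7.25 ± 1.27 CPM for E+ pools, and its 24 hpf averages 19.7 ± 2.69 CPM for E– pools, against 14.1 ± 0.329 CPM for E+ pools. Its joint FDR was 0.0257 (edgeR), and at 12 hpf its log2FC was 0.66 (SE 0.16, FDR 0.0568). It was not called at 18 hpf (log2FC 0.32, FDR 0.566) or at 24 hpf (log2FC 0.48, FDR 0.501). The her15.1 pools did not overlap at 12 and 24 hpf, which held in either direction for 4.11% and 4.37% of all genes. her15.1 and her4.1 belong to groups of near-identical tandem copies. Reads that map to several places were tallied apart from the genes, so part of the reads of these copies may be missing. msi1, an RNA-binding protein of neural progenitors, averaged 113 ± 16.7 CPM in E– pools of 18 hpf, against 77.4 ± 16.6 CPM in E+ pools (SD, n = 4 each), a log2FC of 0.54 (SE 0.12, FDR 0.032, edgeR), and had log2FC of -0.17 at 12 hpf and -0.02 at 24 hpf. Among the related genes named here, every E– pool lay above every E+ pool at 18 hpf for msi1, elavl4, dlb and nhlh2. That order held for 3.25% of all genes. her15.1, msi1, elavl4 and dlb were named for a small joint p, so their separation adds no test. No Notch pathway gene and no progenitor gene of these lists was called in the joint test within either lane alone. A single lane holds only 2 pools per group. Over all genes the joint test called 13 in lane 7 and 51 in lane 8, against 220 with all pools. The progenitor call was that of msi1, with a joint FDR of 0.0597 (edgeR), and was lost at FDR under 0.05. It was also lost without E+ 18 hpf replicate 2, E+ 18 hpf replicate 3 or E– 18 hpf replicate 4.

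The other named genes did not pass the VitE tests in the reported fit. Of the neuron list, elavl4 passed the joint test without E+ 12 hpf replicate 2 (FDR 0.0312, edgeR) and onecut1 without E– 12 hpf replicate 2 (FDR 0.0422), and both did with all genes with reads kept (FDR 0.0764 for elavl4 and 0.0583 for onecut1). The largest single value was that of atoh1b at 18 hpf, a log2FC of 1.51 (SE 0.63, unadjusted p 0.0213, FDR 0.441, edgeR), with at most 0.983 CPM in an E– pool and 0.318 CPM in an E+ pool. dlb had a log2FC of E– over E+ of -0.19 at 12 hpf, 0.41 (SE 0.12, FDR 0.187, edgeR) at 18 hpf and -0.04 at 24 hpf. elavl4 had -0.51 (SE 0.17, FDR 0.203) at 12 hpf, 0.23 at 18 hpf and 0.02 at 24 hpf. At 12 hpf nes had -0.40 (SE 0.12, FDR 0.17) and bhlhe22, a bHLH gene of interneurons, -0.37 (SE 0.16, FDR 0.402), whereas onecut1 had 0.53 (SE 0.18, FDR 0.23). The median over the 29 genes was -0.08 at 12 hpf, 0.06 at 18 hpf and -0.03 at 24 hpf, beside -0.00, 0.00 and 0.00 over all genes.

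Likeness between genes was measured as the root mean square difference of mean-centred log2 CPM over the 24 pools, among 18658 other genes with a name. It is a description only, and the names table gives some zebrafish genes under capital-letter symbols. Nearest to sox2 was THOC2 (0.0776), to sox3 CLTA (0.0789), to sox19a TM9SF2 (0.0997) and to sox19b MPHOSPH8 (0.11). Nearest to neurog1 was LARP4B (0.145), to ascl1a TTN (0.193), to neurod4 VAT1 (0.185) and to elavl3 ank2b (0.146). The second nearest, in the same order of the 8, were TNRC6A, BTF3, MED6, ARID4A, DYRK2, ANK3, TTN and RAPGEF2. Among the 8 genes themselves the nearest pair was sox2 and sox19b (0.221), and of the rising genes neurod4 and elavl3 (0.266). The root mean square of a gene about its own mean was 0.116 for sox2 and 0.204 for sox19b. It was 1 for neurod4 and 0.822 for elavl3. The sox2 to sox19b distance was larger than either of their own values, so it shows little variation in both and not a shared course. The neurod4 to elavl3 distance was well below theirs. Every such distance includes how a gene changed with age.

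In the RefSeq annotation of the GRCz12tu assembly, another build than that of the counts, neurog1 overlaps the gene polr2g, and sox2, sox3, sox19a and elavl3 each overlap a long noncoding RNA. The strand setting of the counting is not given in the sources used here, so reads of overlapping genes may be mixed or dropped. sox19b, ascl1a and neurod4 had no overlapping gene in that annotation.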

How the data were processed

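Whole-embryo RNA of 24 pools (10 embryos each) was sequenced as 3′ mRNA libraries. The authors checked reads with FastQC 0.11.5, trimmed adapters and poly(A) tails, aligned to GRCz11 with STAR 2.7.3a and deposited a table of raw counts, 1 row per Ensembl gene. Reads not assigned to a gene, 39.1 to 47.5% per pool, were left out. Groups, replicate numbers and lanes (7 and 8, with 2 pools per group in each) came from the labels.

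The analysis ran in edgeR 4.0.16 under R 4.3.3: filterByExpr over the 6 groups (19597 of 32520 genes), TMMwsp scaling, 1 quasi-likelihood fit of all pools, the 3 E– to E+ contrasts tested together and singly, their interaction with age, and the age contrasts within each diet. FDR under 0.1 was called, as in the study, whose text does not name its gene filter. A log2FC is from the fit, and its SE is its size over the square root of F. CPM used scaled library sizes. Log2 CPM for likeness used a prior count of 2. Scripts were tested on simulated data. The effect of depth was described by counting error from read counts alone, a lower bound where reads are copies of the same molecule. The sources name no molecular identifiers.

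Replicates differed by more than sampling noise (chi-square per degree of freedom 4.88 to 20.7 over 36 pairs), so none was merged. The 8 genes and the lists of related and marker genes were chosen with earlier results of these data known. Named from each list were the 2 genes with the smallest joint p and the 2 with the largest E+ change from 12 to 24 hpf; for likeness, the 2 nearest genes. Alternatives were 2 other gene filters, 2 other scalings, DESeq2 1.42.0, the newer quasi-likelihood method, a lane term, a replicate block, each lane alone, FDR under 0.05 and leaving out each pool. Gene names came from a names table (29201 of 32520 IDs). Figures used Python 3.11.15 and matplotlib 3.10.9.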

Additional observations from a re-analysis of the deposited data

Results flagged for a closer look

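In 4 of the 48 groups of 4 pools (8 genes in 6 groups), 1 pool stood apart by Dixon's test for 4 values (gap to the nearest pool over the range), where chance gives about 1 in 20, or 2.4. sox19b in E– at 24 hpf had a low replicate 4 at 25.2 CPM (ratio 0.93). sox2 in E+ at 18 hpf had a high replicate 4 at 69.6 CPM (0.898). sox3 in E+ at 24 hpf had a high replicate 1 at 334 CPM (0.901), and elavl3 in E+ at 24 hpf a high replicate 3 at 398 CPM (0.915). No difference between ages in the E– to E+ contrast passed the interaction test for the 8 genes.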

How the results depend on the processing

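Of 3080 values (88 results of the 8 genes, each under 35 alternatives), 3038 kept their side of the threshold, 14 passed it newly and 28 no longer passed. Of 2520 log2FC among them, 29 had another sign than the reported value, in 10 results of which 0 were called, and 24 of these 29 differed from it by less than its SE. In all, 50 log2FC differed from the reported value by more than its SE. The causes were not tested. Of the 35 alternatives, 24 leave out a single pool. For contrasts at a single age or between ages within a diet, most of these pools lie outside the contrast. The neurod4 value at 12 hpf stayed at -0.49 or -0.48 whichever pool of 18 or 24 hpf was left out. The setting of FDR under 0.05 reuses the reported fit. Many of the 3038 unchanged values were thus largely fixed in advance, and their number does not measure robustness. Depth limits ascl1a and neurod4 at 12 hpf most.

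The counts of DE genes in the whole table depended strongly on the setting. In the joint E– to E+ test, 220 genes became 573 with all genes kept, 637 in DESeq2, 84 at FDR under 0.05, 13 in lane 7 and 51 in lane 8, and 103 to 362 without single pools. At 12 hpf 158 became 338, 307, 59, 0 and 89 in that order, and 49 to 331 without single pools. At 18 hpf 78 became 177, 199, 35, 3 and 5, and 7 to 111 without single pools. At 24 hpf 0 became 26 with all genes kept, 23 in DESeq2, 2 in lane 7 and 7 in lane 8, and 0 to 4 without single pools. For the interaction 3 became 122 with all genes kept, 104 in DESeq2, 6 unscaled, 0 with a lane term, 0 in lane 7 and 0 at FDR under 0.05, and 0 to 62 without single pools. Of the 8 genes, 1 was called at 12 hpf with all genes kept and 1 in DESeq2. Without single pools 0 to 1 were called in the joint test and at 12 hpf, and 0 to 0 at 18 hpf, at 24 hpf and in the interaction.

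For age, E+ 24 against 18 hpf had 2117 genes in lane 7 and 2656 in lane 8 (4863 in all pools), and 3 of the 8 genes in lane 8 (5 in all pools). E– 18 against 12 hpf had 4875 in lane 7 (8262), and E– 24 against 18 hpf 1971 in lane 7 and 1935 in lane 8 (4278). Without single pools, the called number of the 8 genes was 5 to 6 (E– 18 against 12 hpf), 3 to 4 (E– 24 against 18 hpf), 6 to 7 (E– 24 against 12 hpf), 5 to 7 (E+ 18 against 12 hpf), 4 to 5 (E+ 24 against 18 hpf) and 6 to 6 (E+ 24 against 12 hpf). Over the whole table the ranges in E– embryos were 7415 to 8425, 3500 to 4483 and 10175 to 11031 genes, in the same order. In E+ embryos they were 7931 to 8718, 3889 to 5079 and 9825 to 10555 genes.

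Replicate numbers gave no sign of pairing the pools. The correlation of same-numbered E– and E+ pools over 5000 genes ran from -0.231 to 0.239 in 12 pairs, and 2 exceeded 0.1. Pools with different numbers ran from -0.221 to 0.236. Such correlations cannot establish whether the pools were paired by design. With the replicate block the joint test called 175 genes, 12 hpf 116, 18 hpf 85, 24 hpf 0 and the interaction 0, and neurod4 at 12 hpf had a log2FC of -0.48 (FDR 0.196). The block called 0 of the 8 genes in each E– to E+ test.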

Other observations

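Relative spread was largest at the youngest age for 7 of the 8 genes (the group with the highest CV was a 12 hpf group), and at 18 hpf for sox19b. Among all genes tested the corresponding share at 12 hpf was 45.1%, so the 8 are described beside that figure without a test. The highest CVs were 29.2% for ascl1a and 24.6% for elavl3, both in E+ at 12 hpf, and 23.2% for neurod4 in E– at 12 hpf. In E+ embryos at 12 hpf the pools with the highest elavl3 values, replicates 1 and 4 at 122 and 106 CPM, were also the 2 highest for ascl1a (5.94 and 5.12 CPM). At 24 hpf the CV was 1.63% in E– and 8.96% in E+ embryos for elavl3. For neurod4 it was 3.87% in E– and 14.3% in E+ embryos, the latter close to the 15.9% of E+ at 12 hpf.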
